A study of Ovis aries with 18 samples.

Results

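CSF2 and INHBA, a pair of growth-factor cytokine genes, were followed in sheep whole blood incubated with an agonist of Toll-like receptor 4 (TLR4). They were chosen by name out of 944 genes that the array identifies by symbol, because earlier results of these data showed both to be higher with MPLA than with LPS. CSF2 is read by 1 probe (A_70_P039321) and INHBA by 2 (A_70_P051056 and A_70_P051057), out of 15008 non-control probes. Blood of 6 healthy adult female sheep was divided, so that each animal gave 1 array under each of 3 treatments, 18 arrays in all. Blood received phosphate-buffered saline (PBS) as the control, 1 µg of lipopolysaccharide (LPS, from the outer membrane of Gram-negative bacteria) and 10 µg of monophosphoryl lipid A (MPLA, a lipid A derivative with a phosphate group removed), each for 90 minutes. The labels give these amounts, while the study's methods give the same figures as doses per mL. Since the amounts differ, agonist and amount cannot be told apart. The incubations were short and outside the animal, so the cells are those of blood in a tube. In whole blood, fewer cells of a type and less RNA per cell cannot be told apart.

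CSF2 encodes granulocyte-macrophage colony-stimulating factor (GM-CSF), a secreted cytokine that promotes the production, survival and activation of granulocytes and macrophages and signals through a receptor whose beta chain is shared with interleukin-3 and interleukin-5. INHBA encodes the inhibin beta A subunit. A dimer of this subunit is activin A, a ligand of the TGF-beta family that signals through activin receptors and SMAD proteins, is bound by follistatin, and is released during inflammation. Paired with the inhibin alpha subunit, the same chain forms inhibin A, so the transcript alone does not tell which hormone is made. TLR4 recognises the lipid A part of LPS with the help of CD14 and drives cytokine transcription, which is the setting in which both genes were read here.

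Arrays were not equally bright, with a 75th percentile of signal between 24.7 and 123 and a share of probes well above background between 23.8% and 45.1%. Both extremes of each range were PBS arrays. Levels are therefore given as signal divided by the 75th percentile of the same array, called the normalised signal. A probe counts as detected on an array when the scanner software marks it as well above background. Where a signal could not be told from 0, the software put a small positive value in its place. Such a value is called a replaced value here, and differences that use it are uncertain in size. Among markers of blood cells, CD3D and CD3E (T cells), CD14 and LYZ (monocytes) and HBB (red cells) were detected on all 18 arrays, and none of these 5 was called in any comparison. ITGAM (monocytes) and CD4 (T cells), the other markers of these types named on the array, were detected on 0 arrays. LTF, the only neutrophil marker named on the array, was detected on 5 arrays, and no B cell, NK cell or platelet marker of the lists is named on it.

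CSF2 was low in PBS and high with both agonists. The probe was detected on 0 of 6 PBS arrays, 4 of 6 LPS arrays and 6 of 6 MPLA arrays. Its normalised signal in PBS was 0.053 in animal 71Y, 0.145 in 51Y, 0.068 in 20, 0.231 in 170, 0.158 in 80 and 0.081 in 65Y, and 4 of these (71Y, 51Y, 170 and 65Y) were replaced values. With LPS it was 1.96 in 71Y, 0.452 in 51Y, 5.57 in 20, 1.29 in 170, 0.448 in 80 and 0.512 in 65Y. With MPLA it was 1.80 in 71Y, 0.715 in 51Y, 8.29 in 20, 1.08 in 170, 2.23 in 80 and 0.885 in 65Y. The values as listed did not overlap between PBS and either agonist, as for 0.681% of the 4110 tested probes with LPS and 0.608% with MPLA. The highest PBS value is a replaced one, however, on an array whose lowest detected signal was 1.14, and 3 LPS and 3 MPLA arrays lay below that level, so a full separation is not established. LPS and MPLA arrays overlapped, and animal 20 was the highest under both.

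**Figure D1:**
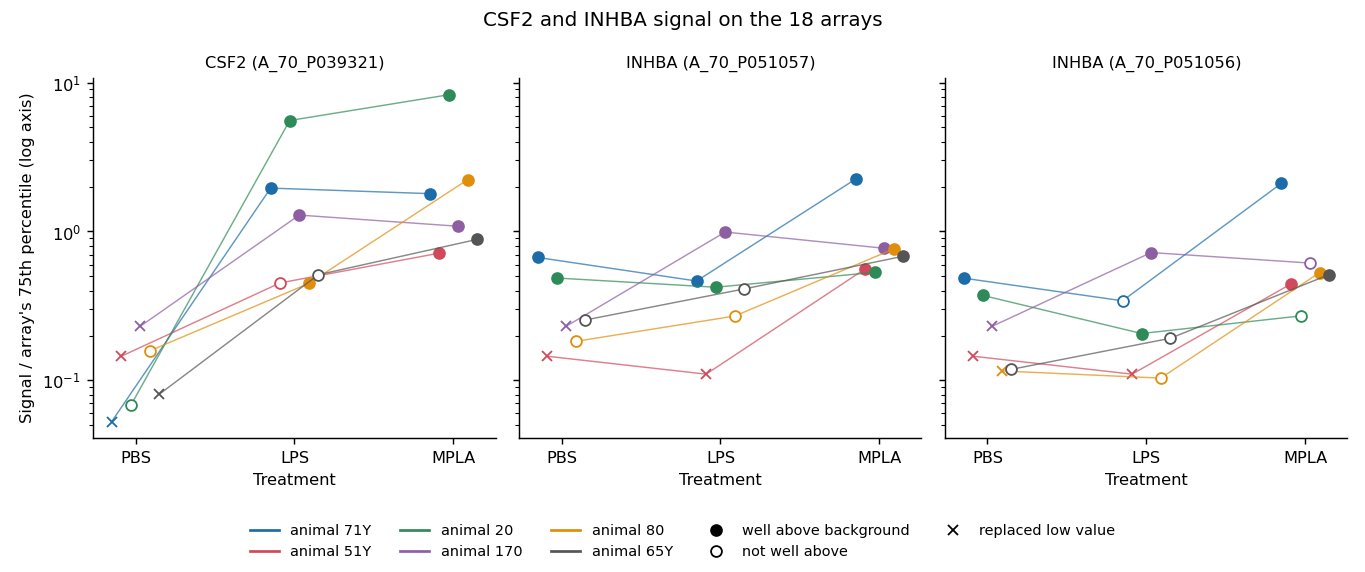
Normalised signal (signal divided by the array's 75th percentile, log axis) of the CSF2 probe and both INHBA probes in the 6 animals under PBS, LPS and MPLA, with a line for each animal. Filled circles are well above background, open circles are not, and crosses are replaced values. No CSF2 point is filled in PBS, and 6 of 6 are filled with MPLA.

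Spot errors followed the same order. The software's error was 10.0% to 20.0% of the signal on the LPS arrays that detected CSF2 and 10.0% to 15.3% on the MPLA arrays. On the PBS arrays it was 52.3% to 98.4% of the value. The amount of CSF2 in PBS is thus bounded from above and not measured.

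With LPS, CSF2 was higher than in PBS in 6 of 6 animals, as 2.38% of all tested probes were. Not every rise was measured, since in 51Y and 65Y neither the PBS nor the LPS array detected the probe. In 51Y and 80 the normalised LPS signal (0.452 and 0.448) lay below the lowest detected one of the PBS array (0.715 and 0.571). The log2 difference from the PBS array of the same animal was 5.21 in 71Y, 1.64 in 51Y, 6.36 in 20, 2.48 in 170, 1.504 in 80 and 2.66 in 65Y. The mean was 3.31 ± 2.003 (SD, n = 6), and limma gave a standard error of 0.61, a 95% interval of 1.94 to 4.68 and an adjusted p of 0.042. Of all tested probes, 0.803% were called higher with LPS. With the PBS arrays set at their detection floor, which is the lowest signal among detected probes, the CSF2 mean with LPS stood 2.36-fold higher. This is not a strict bound, since the LPS mean includes 51Y and 65Y, which did not detect the probe. The call was narrow: it held without animal 170 (adjusted p 0.0498) and was lost without 71Y (0.145), 51Y (0.061), 20 (0.067), 80 (0.056) or 65Y (0.125).

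With MPLA, CSF2 was again higher in 6 of 6 animals, where 2.09% of tested probes were. In 170 the normalised MPLA signal (1.08) lay below the lowest detected one of the PBS array (1.14). The log2 difference from PBS was 5.09 in 71Y, 2.30 in 51Y, 6.93 in 20, 2.23 in 170, 3.82 in 80 and 3.45 in 65Y. The mean was 3.97 ± 1.80 (SD, n = 6), with a standard error of 0.54, a 95% interval of 2.77 to 5.17 and a limma adjusted p of 0.0040, where 0.779% of tested probes were called higher. Against the PBS detection floor, CSF2 was at least 3.74-fold higher with MPLA. The call held when any single animal was left out, with adjusted p values between 0.00067 and 0.022.

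The choice of these genes rested on MPLA against LPS, and the comparisons above share the LPS or the MPLA arrays with it. The mean of both agonists against PBS does not depend on how they differ from each other. By that measure the CSF2 difference was 3.64 ± 1.85 (SD, n = 6) on the log2 scale, and the lowest animal, 51Y, stood at 1.97. The size is uncertain, since no PBS array detected the probe. The limma adjusted p was 0.00038, and 0.925% of tested probes were called higher. The probe passed the detection filter through its MPLA arrays alone, and the filter thus helped select a probe that differs from PBS. Without that filter the LPS call was lost (limma adjusted p 0.081), while those for MPLA (0.0092) and for the mean (0.0011) held. When every value below an array's detection floor was raised to that floor, the means fell to 1.35 with LPS, 1.90 with MPLA and 1.63 for both, and none of these was called (limma adjusted p 0.998, 0.506 and 0.433). With normexp background correction, the means were 0.99, 1.27 and 1.13, also without a call. That correction adds an offset of 50 to each signal, which by itself shrinks log2 differences of dim probes.

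INHBA was detected most often with MPLA. The count of arrays that detected probe A_70_P051057 was 2 of 6 for PBS, 3 of 6 for LPS and 6 of 6 for MPLA. Its normalised signal in PBS was 0.669 in animal 71Y, 0.145 in 51Y, 0.487 in 20, 0.231 in 170, 0.183 in 80 and 0.254 in 65Y, with replaced values in 51Y and 170. With LPS it was 0.465 in 71Y, 0.110 in 51Y (replaced), 0.422 in 20, 0.992 in 170, 0.270 in 80 and 0.411 in 65Y. With MPLA it was 2.25 in 71Y, 0.560 in 51Y, 0.531 in 20, 0.771 in 170, 0.763 in 80 and 0.682 in 65Y. MPLA and PBS overlapped, since the PBS array of 71Y lay above the MPLA arrays of 51Y and 20. Animals 71Y and 20, which had the highest PBS levels, were also the ones in which the probe was detected without an agonist.

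INHBA was called higher with MPLA by this probe, on arrays that also served to choose it. The gene was picked for its MPLA level against LPS, and the probe passed the detection filter through its MPLA arrays alone. Without that filter it was not called (limma adjusted p 0.155). The difference was positive in 6 of 6 animals. The log2 difference from PBS was 1.75 in 71Y, 1.95 in 51Y, 0.13 in 20, 1.74 in 170, 2.06 in 80 and 1.42 in 65Y. Animal 20 stood near 0, and the other 5 lay between 1.42 and 2.06. The mean was 1.51 ± 0.71 (SD, n = 6), with a standard error of 0.25, a 95% interval of 0.95 to 2.06 and a limma adjusted p of 0.014. Its size is uncertain, since only 2 of 6 PBS arrays detected the probe. Of the tested probes, 0.779% were called higher. Without animal 20 the mean was 1.78 and the adjusted p 0.00017, and without any other single animal the call was lost, at adjusted p values of 0.069 (170), 0.068 (80), 0.071 (71Y), 0.076 (65Y) and 0.104 (51Y).

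With LPS, INHBA did not pass the test. The log2 difference from PBS was -0.53 in 71Y, -0.40 in 51Y, -0.21 in 20, 2.10 in 170, 0.56 in 80 and 0.69 in 65Y. It was positive in 3 of 6 animals, and the highest value, that of 170, starts from a replaced value in PBS. In 51Y both values were replaced ones, so the sign there is not measured. Without 170 the mean was 0.025. Over all animals it was 0.37 ± 0.99 (SD, n = 6), with a 95% interval of -0.35 to 1.09 and a limma adjusted p of 0.998. The interval includes a doubling and a small fall, so a change of that size with LPS cannot be told from none. For the mean of both agonists against PBS, the difference was 0.94 ± 0.67 (SD, n = 6), positive in 5 of 6 animals, and was not called (limma adjusted p 0.323).

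The difference with MPLA was smaller and lost its call when low values were treated in other ways. Raising values below the detection floor to that floor brought the mean to 0.36 (limma adjusted p 0.727). Normexp background correction, whose offset of 50 shrinks differences of dim probes, brought the mean to 0.34 (limma adjusted p 0.928). Fitting without the pairing of arrays by animal left the mean at 1.51 and gave an adjusted p of 0.314. Brightness also differed between the arrays of an animal. In animals 51Y and 170, whose PBS values were replaced, the 75th percentile was 27.8 and 24.7 on the PBS array and 64.5 and 42.1 on the MPLA array. In animal 20 it ran the other way, from 99.3 to 44.6. Over the 6 animals the 75th percentile was higher with MPLA than with PBS in 4, and its part in the INHBA result was not tested.

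The second INHBA probe, A_70_P051056, was detected on 2 of 6 PBS arrays, 2 of 6 LPS arrays and 4 of 6 MPLA arrays, and so did not enter the tests above. Its normalised signal in PBS ran from 0.116 over a median of 0.188 to 0.486, with replaced values on 3 arrays. With LPS it ran from 0.104 over a median of 0.199 to 0.722, and with MPLA from 0.271 over a median of 0.522 to 2.11. The highest array was that of animal 71Y in PBS and with MPLA and that of 170 with LPS, as for the other probe, and all 3 treatments overlapped.

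The probes read the same transcript record and moved together. Over the 18 arrays, their log2 values centred on each animal had a Pearson r of 0.95, and on 3 arrays both held a replaced value. This is a description, since the points share animals and arrays. The MPLA difference from PBS by A_70_P051056 was 1.499 ± 1.01 (SD, n = 6), close to that of the other probe, but in animal 20 it was -0.46. The LPS difference was 0.07 ± 0.93, positive in 2 of 6 animals. Under a wider filter that asks for detection on 4 of 6 arrays of a treatment, both probes were tested. A_70_P051057 was called for MPLA (limma adjusted p 0.034) and A_70_P051056 was not (0.164), where 0.581% of 4992 tested probes were called higher.

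**Figure D2:**
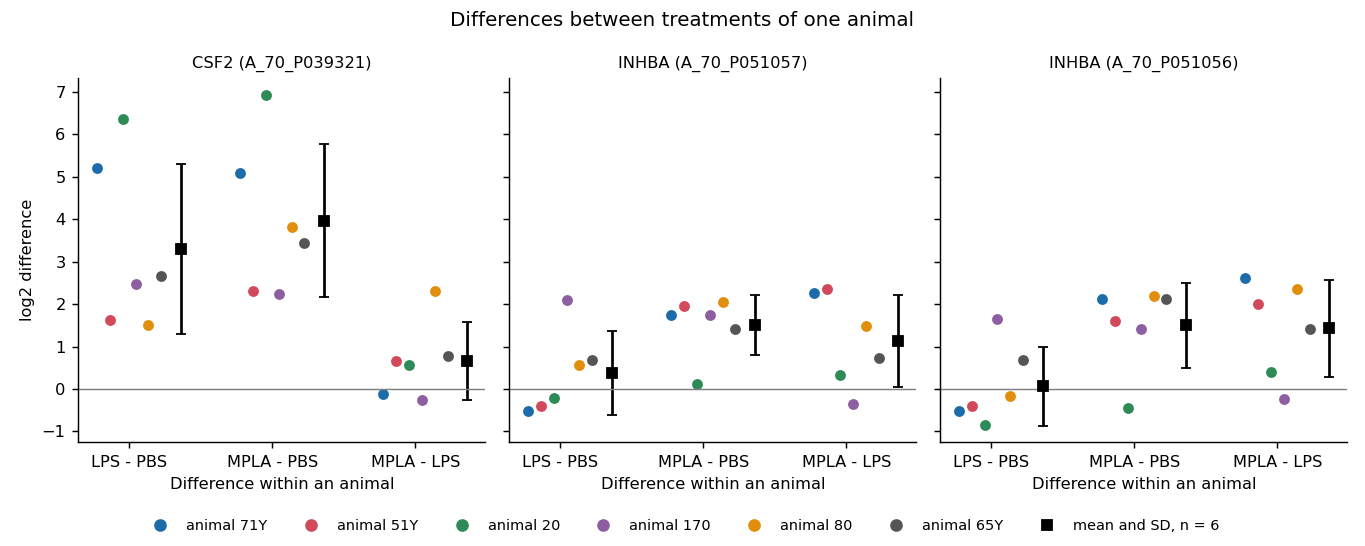
Log2 differences between treatments of one animal for the CSF2 probe and both INHBA probes. Points are animals, and squares with bars are the mean and SD of 6. CSF2 lies above 0 in all 6 animals for both agonists against PBS, while INHBA with LPS lies on both sides of 0.

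MPLA set against LPS is the comparison that chose the genes, and it is given as a description. CSF2 was higher with MPLA in 4 of 6 animals. The log2 difference was -0.12 in 71Y, 0.66 in 51Y, 0.57 in 20, -0.25 in 170, 2.32 in 80 and 0.79 in 65Y, with a mean of 0.66 ± 0.92 (SD, n = 6). The SD exceeded the mean, and most of the mean came from animal 80, without which it was 0.33. Levels of CSF2 with LPS and MPLA had log2 means of 0.09 ± 1.47 and 0.75 ± 1.28. These SDs are between animals and do not measure the spread of the paired difference.

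By either probe, INHBA stood above its LPS level on 5 of the 6 MPLA arrays, and 170 was the animal in which it was lower. By A_70_P051057 the log2 difference was 2.27 in 71Y, 2.35 in 51Y, 0.33 in 20, -0.36 in 170, 1.498 in 80 and 0.73 in 65Y, with a mean of 1.14 ± 1.09 (SD, n = 6). By A_70_P051056 it was 2.62 in 71Y, 2.01 in 51Y, 0.39 in 20, -0.23 in 170, 2.35 in 80 and 1.42 in 65Y, with a mean of 1.43 ± 1.14 (SD, n = 6). Either mean was about as large as its SD. In 51Y the LPS value of either probe was a replaced one, and without that animal the means were 0.89 and 1.31. Being higher with MPLA in at least 5 animals was seen for 10.4% of the 4110 tested probes. From lowest to highest mean, INHBA levels ran PBS, LPS and MPLA, with log2 means of -1.82 ± 0.85, -1.45 ± 1.04 and -0.32 ± 0.76 by A_70_P051057. These SDs too are between animals. Paired within animals, LPS differed from PBS by 0.37 ± 0.99 (SD, n = 6), positive in 3 of 6. The place of LPS above PBS rests on animal 170, without which the difference was 0.025 by this probe and -0.24 by A_70_P051056.

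**Figure D3:**
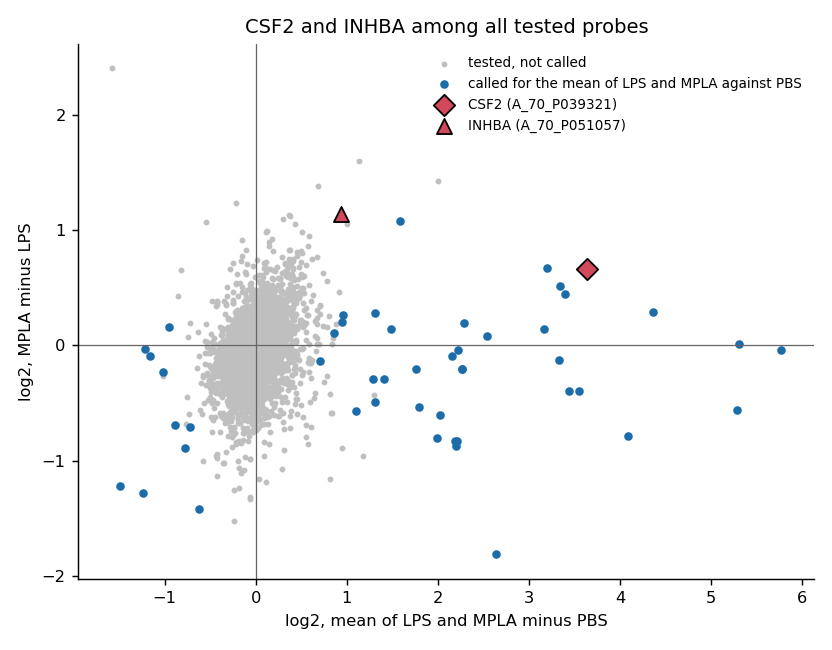
Each point is 1 of 4110 tested probes, with the log2 difference of the mean of LPS and MPLA from PBS on the x axis and that of MPLA from LPS on the y axis. CSF2 lies far to the right, at 3.64 and 0.66, and INHBA (A_70_P051057) at 0.94 and 1.14. The y axis holds the comparison that chose these genes.

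The differences of each agonist from PBS were also read within each of the 3 slides, for CSF2 and A_70_P051057. Animal 170 had its MPLA array on a different slide from the rest of its arrays, and no other animal was split. On the slide of 71Y and 170 the CSF2 difference of LPS from PBS averaged 3.84, on that of 80 and 65Y 2.08, and on that of 51Y and 20 it was 3.997. For MPLA, the values within a slide were 5.09 (71Y alone), 3.64 (80 and 65Y) and 4.62 (51Y and 20). For INHBA (A_70_P051057) with MPLA they were 1.75, 1.74 and 1.04, and with LPS 0.79, 0.63 and -0.30. Of these 12 values, that of INHBA with LPS on the slide of 51Y and 20 was the one below 0.

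**Figure D4:**
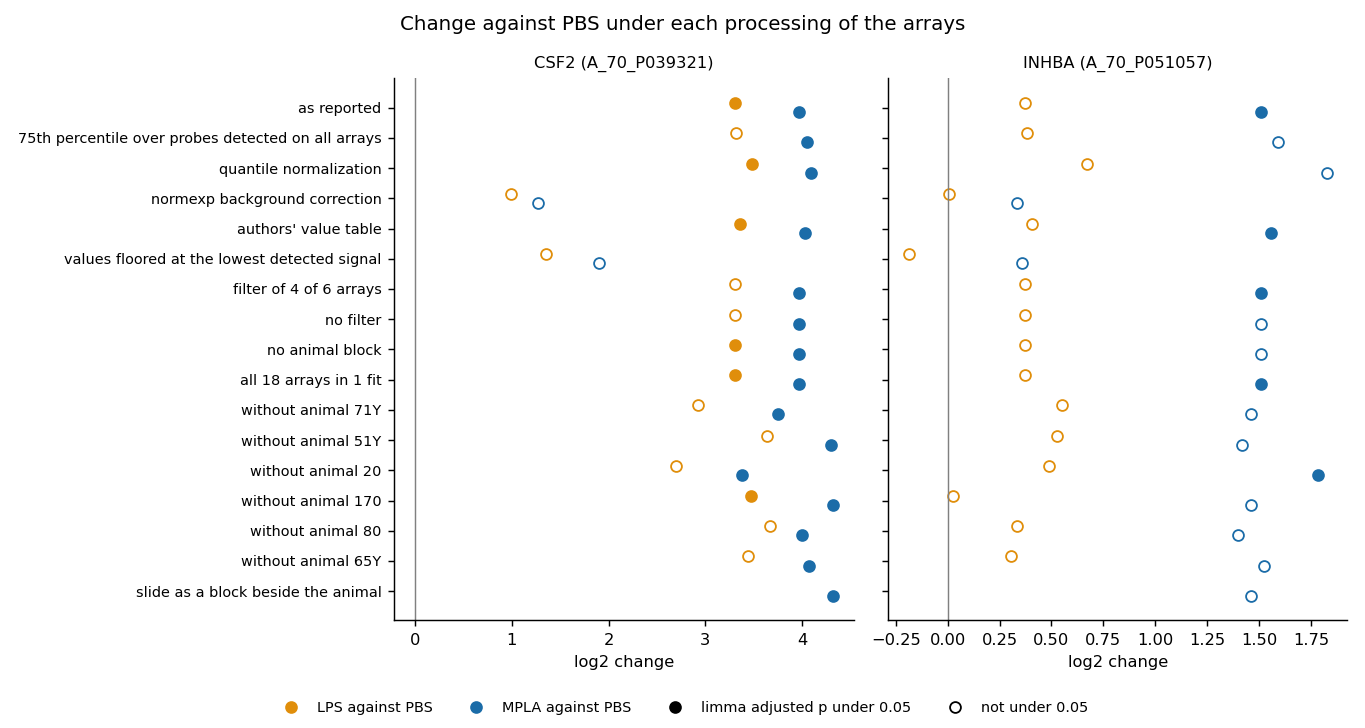
Log2 change of CSF2 and INHBA (A_70_P051057) against PBS under each processing, with filled points where the limma adjusted p was under 0.05. The x axes differ between panels, and the methods' t-test is not drawn. CSF2 with MPLA lies at 3.97 and falls to 1.27 with normexp and 1.90 with floored values.

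Few other genes of either pathway were read. Of 20 genes listed for the colony-stimulating factor family and its receptors, 5 are named on the array and 2 were tested, CSF2 and FLT3LG, a cytokine that supports dendritic cell and progenitor growth. FLT3LG was detected on all 18 arrays and was not called, at log2 differences of 0.10 with LPS and -0.02 with MPLA. IL3 and EPO were detected on no array and IL5 on 1, so their changes were not measured here. Among 18 genes listed for GM-CSF signalling, 3 are named and MYC, a growth-promoting transcription factor, was tested. Its log2 difference from PBS was 0.83 with LPS (limma adjusted p 0.138), positive in 6 of 6 animals, and stood at 0.21 with MPLA (0.689). Its MPLA level was below its LPS level in 6 of 6 animals, and that difference was not tested. The share of tested probes with this order was not counted. Their median log2 difference of MPLA from LPS was itself below 0, at -0.09.

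Of 28 listed ligands and inhibitors of the activin and TGF-beta family, 8 are named on the array, and only INHBA was tested. TGFB1, the archetype of the family, was detected on 1 array, BMP4, a bone morphogenetic protein, on 2, its antagonist NOG on 2, BAMBI, a decoy receptor, on 4, and DCN, a matrix proteoglycan that binds TGF-beta, on 3. MSTN and BMP15 were detected on none. Of 29 listed receptors, SMAD proteins and targets, 5 are named, and SMAD4, the SMAD shared by the branches of this pathway, was tested. It was not called, with log2 differences of 0.13 with LPS and -0.46 with MPLA, both with limma adjusted p values above 0.6. ACVR2A, a receptor that binds activin, was detected on no array. Across all tested probes the median log2 difference was 0.00 with LPS and -0.09 with MPLA.

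Of the 22 genes listed for TLR4 and its adaptors, 5 are named, and 2 were tested. CD14, the co-receptor that hands LPS to TLR4, stood at -0.31 with LPS and -0.47 with MPLA, and IRAK4, a kinase below the receptor, at 0.06 and 0.05. None was called. TLR4 itself was detected on 3 arrays and MYD88, its adaptor, on 0.

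The named probes whose pattern over the 18 arrays was most like that of CSF2 were those of IL10, IL6, IL1A and TNF, all cytokine genes. With log2 values centred on each animal, IL10 (an inhibitory cytokine) had a Pearson r of 0.93, IL6 0.90, IL1A 0.90 and 0.88 by its 2 probes, and TNF 0.90, out of 438 named tested probes. Each was called for both agonists. IL10, detected on all 18 arrays, rose by 3.09 on the log2 scale with LPS and 3.60 with MPLA, and TNF, likewise detected throughout, by 1.43 and 1.14. IL6 and IL1A were like CSF2 in being detected on 0 of 6 PBS arrays. IL6 was at least 5.49-fold higher with LPS and at least 3.18-fold with MPLA, and IL1A (A_70_P051176) at least 6.46-fold and at least 7.91-fold. The other IL1A probe, A_70_P051177, gave less, with at least 3.52-fold for MPLA. For LPS its figure was 2.59-fold, with detection on 5 of 6 LPS arrays. The mean was thus larger with MPLA for IL10 and IL1A, as for CSF2, and larger with LPS for IL6 and TNF, without a test of these differences. Of the 5 probes, 4 were also in the first 5 when values were not centred. INHBA was 37th of this list, with r = 0.47.

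INHBA shared its pattern with another set. Its most similar named probes were both of OVAR (r = 0.87 and 0.84), MYL11 (0.86), FTH1, the ferritin heavy chain that stores iron (0.83), and ATF4, a transcription factor of the integrated stress response (0.81). None of these 5 was called in any comparison, and their log2 differences lay between -0.04 and 0.21 with LPS and between 0.31 and 0.51 with MPLA. None of the 5 remained among the first 5 when values were not centred, so this likeness depends on that step. Arrays share scaling and detection limits among all probes, and the correlations are descriptions over 18 arrays of 6 animals. They give no account of function.

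**Figure D5:**
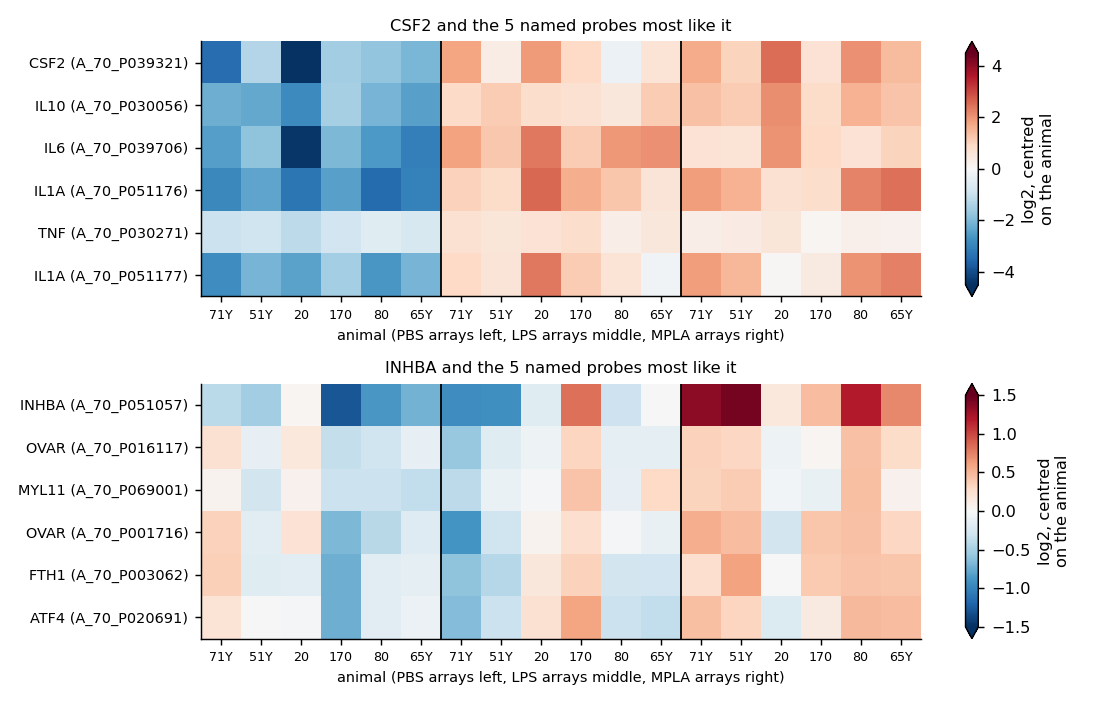
Log2 values centred on the mean of each animal's 3 arrays, for CSF2 and the 5 named probes most like it (top) and for INHBA and its 5 (bottom), with arrays of the 6 animals under PBS, LPS and MPLA from left to right. The colour scales differ between panels. The upper probes are low on all 6 PBS arrays, and the lower 5 probes move less than INHBA does.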

How the data were processed

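Whole-blood RNA of 6 sheep was hybridised to 18 one-colour Agilent sheep arrays (3 treatments, 6 arrays each). Per the labels, the authors deposited scanner output of Agilent Feature Extraction 11.5.1.1 (protocol GE1_1105_Oct12), whose intensity values are background-subtracted processed signals. The authors also deposited a table of ratio values, each signal divided by about the array's 75th percentile (worked out here by comparison with the intensities). The human arm was not analysed here.

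Spots marked as outliers were left out, and spots of one probe were averaged. Each probe's processed signal was divided by the 75th percentile of all non-control probes on that array and put on the log2 scale. Tests used the 4110 probes well above background on all 6 arrays of at least 1 treatment, with limma 3.58.1 (lmFit, eBayes, two-sided) in R 4.3.3 and animal as a block, and Benjamini-Hochberg adjustment over all tested probes. Calls were made under 0.05. LPS and MPLA were each compared with PBS, as was their mean, and these comparisons share the PBS arrays. Arrays of one animal are paired by name in the titles. Their deviations from treatment means correlated at 0.60 on average (lowest of 18 pairs 0.14), against -0.12 between animals. The model was tested on simulated data.

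A bound ("at least N-fold") compares the mean of the brighter treatment with a mean in which each dim array enters at its detection floor, or at its own signal if that is higher. Undetected arrays of the brighter treatment keep their signal, and a figure that includes them is not called a bound. Of 2200 probes with a RefSeq accession, 1265 got a symbol from the gene table of ARS-UI_Ramb_v3.0, whose coordinates were not used. Genes named beside CSF2 and INHBA are the 5 named probes most correlated with each, called genes of the lists, and tested members of both families. The list genes not tested, and the tested MYC, SMAD4 and TLR4-pathway genes, were named after their detection was seen. The members and lists were chosen with earlier results of these data known. Alternatives covered scaling, background, the authors' table, floored values, filters, blocks, the test and each animal left out. The spot median signal was used for normexp, with an offset of 50. The number of arrays limits the precision.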

Additional observations from a re-analysis of the deposited data

Results flagged for a closer look

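Dixon's test was applied to 21 sets of 6 values (each probe in each treatment and each difference), of which chance marks about 1 in 20, and 3 values stood apart. For INHBA probe A_70_P051057 with MPLA, the array of animal 71Y was at a log2 normalised signal of 1.17, while the other 5 lay between -0.91 and -0.37. By the same probe, the difference of MPLA from PBS in animal 20 was 0.13, against 1.42 to 2.06 in the others. By A_70_P051056, the same difference in animal 20 was -0.46, against 1.41 to 2.20. These last values share their arrays, and both probes read 1 transcript. No CSF2 value stood apart by this test.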

How the results depend on the processing

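CSF2 stayed higher than PBS under all alternatives run, with log2 changes of 0.99 to 3.67 for LPS, 1.27 to 4.32 for MPLA and 1.13 to 3.97 for their mean. Its LPS call was lost with the 75th percentile over detected probes (3.32), normexp (0.99), floored values (1.35) and, at an unchanged 3.31, with the filter of 4 of 6 arrays, no filter and the methods' t-test after Benjamini-Hochberg adjustment. Leaving out an animal gave 2.70 to 3.67. The calls for MPLA and for the mean were lost with normexp (1.27 and 1.13), floored values (1.90 and 1.63) and the adjusted t-test (3.97 and 3.64).

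INHBA (A_70_P051057) lost its MPLA call with the percentile over detected probes (1.59), quantile normalization (1.83), normexp (0.34) and floored values (0.36). At an unchanged 1.51, it was also lost with no filter, no animal block and the adjusted t-test. The slide as a block ended the call too, at 1.46. That is the estimate without animal 170, the one split between slides, so it is no separate check. Leaving out an animal gave 1.40 to 1.78. Dropping the pairing ended no other call of CSF2 or INHBA. For LPS floored values turned the sign (-0.19), and the mean of both agonists passed the methods' unadjusted t-test and fold threshold, at 0.94. For A_70_P051056, floored values gave -0.32 (LPS), 0.092 (MPLA) and -0.12 (mean), normexp gave 0.36 for MPLA and 0.25 for MPLA against LPS, and leaving out an animal gave -0.24 to 0.25 for LPS, with negative values without 170 (-0.24) and without 65Y (-0.05). In MPLA against LPS every probe stayed positive.

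Probes called were 36 for LPS, 42 for MPLA and 48 for the mean. Normexp called 2 for LPS and 22 for the mean, no filter 24 for MPLA, the methods' t-test 74 for LPS and 93 for MPLA, and its adjusted form 11, 13 and 21 in that order. Leaving out an animal gave 30 to 332 for MPLA, the highest without animal 20. The cause of these shifts was not tested. Slide as a block could not be estimated for LPS against PBS, where each animal's arrays share a slide. Levels near the detection floor, CSF2 in PBS above all, are limited by signal over background.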
